A study of Mus musculus with 4 samples.

Results

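The genes described here are 9 genes of the kinase, phosphatase and CREB signalling studied in memory: Creb1, Crebbp, Prkcz, Prkca, Ppp3ca, Ppp3cb, Ppp3r1, Ppp1cb and Ppp1r1b. The rule that picks their regions uses names and positions and no level, but the genes were listed when earlier results of these data were known. Their methylation was read from 482 regions that carry their names in the deposited table and from 47 further regions within 3 kb of the outermost of these, of which 16 carry the name of another gene. Together these are 529 of 849172 regions, and all 529 had a value in every library. The levels come from whole-genome bisulfite sequencing of CA1, a pyramidal cell field of the hippocampus, in 4 libraries from mice of strain C57B6/J aged 117 days. The 2 libraries labelled Tet2+f are called the controls. The 2 labelled Tet2+f_Camk2aCre are called the Cre libraries, the label being read as Cre recombinase under the Camk2a promoter, which is active in excitatory forebrain neurons. Both groups carry Tet2+f and none has Cre alone, so reduced Tet2 and the presence of Cre cannot be told apart. Tet2 encodes an enzyme that oxidises 5-methylcytosine. Bisulfite reads that base and its first oxidised form, 5-hydroxymethylcytosine, alike, and each percent level is their sum.

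The mean over all regions was 75.7% to 76.1% in the 4 libraries. The Tet2 gene body was at 70.5% and 69.7% in the controls against 72.7% and 69.3% with Cre, which does not show whether the allele was recombined. Promoters of neuronal markers had a median level of 14.9% over 4 genes and those of CA1 pyramidal markers 23.8% over 7 genes. Medians were 64.0% for 4 astrocyte, 69.4% for 4 oligodendrocyte and 79.9% for 3 microglial genes. They were 18.4% for 4 dentate gyrus, 43.7% for 6 interneuron and 40.5% for 3 endothelial genes. Within a list levels spread widely, as from 4.76% to 65.9% over the neuronal and from 32.9% to 82.7% over the astrocyte genes. CA1 tissue mixes cell types, so a shift in their shares and a change within 1 type cannot be told apart. Read depth is unknown, since the table has no counts. Whether libraries of a group are from different mice is not labelled, and p-values measure only the spread between libraries, which may be technical.

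Protein kinases add phosphate to proteins and phosphatases remove it, and in hippocampal neurons both act on the strength of synapses. Creb1 encodes the transcription factor CREB, whose binding site TGACGTCA holds a CpG, and Crebbp the histone acetyltransferase CBP that phosphorylated CREB recruits. Prkcz encodes the atypical protein kinase C zeta and, from a start inside the gene that is used in brain, the constantly active PKM-zeta, long studied for the upkeep of memory. Prkca encodes the calcium-dependent protein kinase C alpha. Calcineurin, a phosphatase switched on by calcium and calmodulin, pairs a catalytic subunit (among these genes, from Ppp3ca or Ppp3cb) with a regulatory one (from Ppp3r1). Ppp1cb encodes a catalytic subunit of protein phosphatase 1, and Ppp1r1b encodes DARPP-32, an inhibitor of that phosphatase once phosphorylated by protein kinase A.

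Methylation in mammals lies mostly at CpG dinucleotides, and the sequences before the gene starts are therefore shown with every CpG in capitals. Each line gives the bases upstream of a start, 5′ to 3′ on the strand of the gene, from RefSeq (GRCm38.p6, to which mm10 corresponds). The first 4 are CpG-rich starts of the CREB gene, both kinase genes and the regulatory calcineurin gene. The last 2, a catalytic calcineurin gene and an internal start of Prkcz, hold fewer CpGs.
Creb1, chr1:64532554-64532793, plus strand: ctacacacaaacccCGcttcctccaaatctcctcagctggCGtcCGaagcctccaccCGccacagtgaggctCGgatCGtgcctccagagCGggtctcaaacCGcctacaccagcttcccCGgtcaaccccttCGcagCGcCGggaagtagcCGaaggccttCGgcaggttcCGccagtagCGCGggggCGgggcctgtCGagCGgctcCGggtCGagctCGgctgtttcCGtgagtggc
Prkcz, main start, chr4:155361429-155361678, minus strand: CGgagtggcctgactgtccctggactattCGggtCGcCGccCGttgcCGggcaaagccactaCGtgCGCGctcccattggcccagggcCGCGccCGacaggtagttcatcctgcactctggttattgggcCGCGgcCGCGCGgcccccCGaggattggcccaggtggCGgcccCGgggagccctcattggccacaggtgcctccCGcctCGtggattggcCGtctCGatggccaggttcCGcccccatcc
Prkca, chr11:108343889-108344138, minus strand: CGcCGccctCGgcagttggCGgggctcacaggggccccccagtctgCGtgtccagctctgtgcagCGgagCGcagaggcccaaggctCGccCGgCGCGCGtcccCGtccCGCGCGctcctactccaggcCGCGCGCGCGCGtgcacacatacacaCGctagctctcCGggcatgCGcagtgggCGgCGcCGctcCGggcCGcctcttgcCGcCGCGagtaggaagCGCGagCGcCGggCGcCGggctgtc
Ppp3r1, chr11:17159048-17159297, plus strand: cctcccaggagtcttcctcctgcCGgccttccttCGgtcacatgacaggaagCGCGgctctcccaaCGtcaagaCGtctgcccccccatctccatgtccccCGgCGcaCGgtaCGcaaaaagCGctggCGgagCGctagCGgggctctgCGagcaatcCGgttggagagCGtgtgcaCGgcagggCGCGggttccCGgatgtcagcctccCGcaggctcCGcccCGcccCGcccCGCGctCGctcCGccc
Ppp3cb, chr14:20546574-20546823, minus strand: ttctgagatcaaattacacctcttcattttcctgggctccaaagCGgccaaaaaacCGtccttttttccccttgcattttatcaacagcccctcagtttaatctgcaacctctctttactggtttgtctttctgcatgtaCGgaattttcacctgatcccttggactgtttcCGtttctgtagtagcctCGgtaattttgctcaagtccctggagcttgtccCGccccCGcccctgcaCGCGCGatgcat
Prkcz, internal start, chr4:155345790-155346039, minus strand: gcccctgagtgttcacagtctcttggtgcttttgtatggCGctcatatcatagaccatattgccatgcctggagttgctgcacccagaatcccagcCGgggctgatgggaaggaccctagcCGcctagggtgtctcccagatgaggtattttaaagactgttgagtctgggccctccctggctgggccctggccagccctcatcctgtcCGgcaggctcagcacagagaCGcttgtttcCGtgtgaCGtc

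RefSeq promoter entries matched 7 of the 9 genes, with Ppp3ca and Ppp1r1b unmatched. In the 250 bases before each RefSeq start, Crebbp held 44 CpGs, Prkca 39, Ppp3r1 29, Creb1 26, the main start of Prkcz 25 and Ppp1cb 24. For Creb1 the line above stops at the start of the gene in the gene table, 10 bases short of that window. The RefSeq start of Crebbp lies 0.553 kb past the start in the gene table, and that of Ppp1cb 0.122 kb past it. The median of all 32851 windows in the RefSeq table was 6 CpGs. Ppp3cb, with 10, and the internal Prkcz starts, with 7 and 10, were nearer to it. TGACGTCA, the same on both strands, was in 0 of the windows of these genes and in 1.55% of all windows. The shorter TGACG, which lies within it, was searched on both strands. TGACG occurred once before Ppp3r1 and once before each internal Prkcz start, and in 17.8% of all windows. The window of the internal Prkcz start shown above ends in TGACGTC. The last base of a TGACGTCA there would lie outside the window and was not read.

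All 9 promoters were lowly methylated. A promoter level is the mean over regions that overlap the stretch reaching 2000 bp before and 500 bp past the gene start. Ppp3cb was highest (25.1% to 28.5% over the libraries), then Prkca (18.7% to 20.8%) and Ppp1cb (15.0% to 16.7%), and these ranges did not overlap. Prkcz (13.0% to 14.6%), Creb1 (11.9% to 13.3%), Ppp3r1 (12.2% to 12.6%) and Ppp3ca (11.2% to 13.1%) followed, each overlapping its neighbour in the order. Crebbp (7.93% to 10.2%) and Ppp1r1b (5.46% to 10.1%) were lowest and overlapped. Among 21953 promoters, Ppp1r1b stood at percentile 4.42 and Ppp3cb at percentile 35.8. The Ppp3cb level includes a region of 4712 bp at 88.7% that reaches far upstream, and its other 3 promoter regions were at 0% to 14.2% on average. Elsewhere too a few high regions raised the mean. The median promoter region was at 0.608% in Creb1 (highest region 72.2%), 1.21% in Prkca (85.8%), 1.11% in Ppp1cb (76.2%) and 0.5% in Ppp3r1 (59.7%). It was at 3.63% in Prkcz (51.2%), 1.76% in Ppp3ca (45.5%), 3.86% in Crebbp (37.3%) and 5.78% in Ppp1r1b (19.95%). The order of means above is thus not one of levels at the starts themselves.

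**Figure D1:**
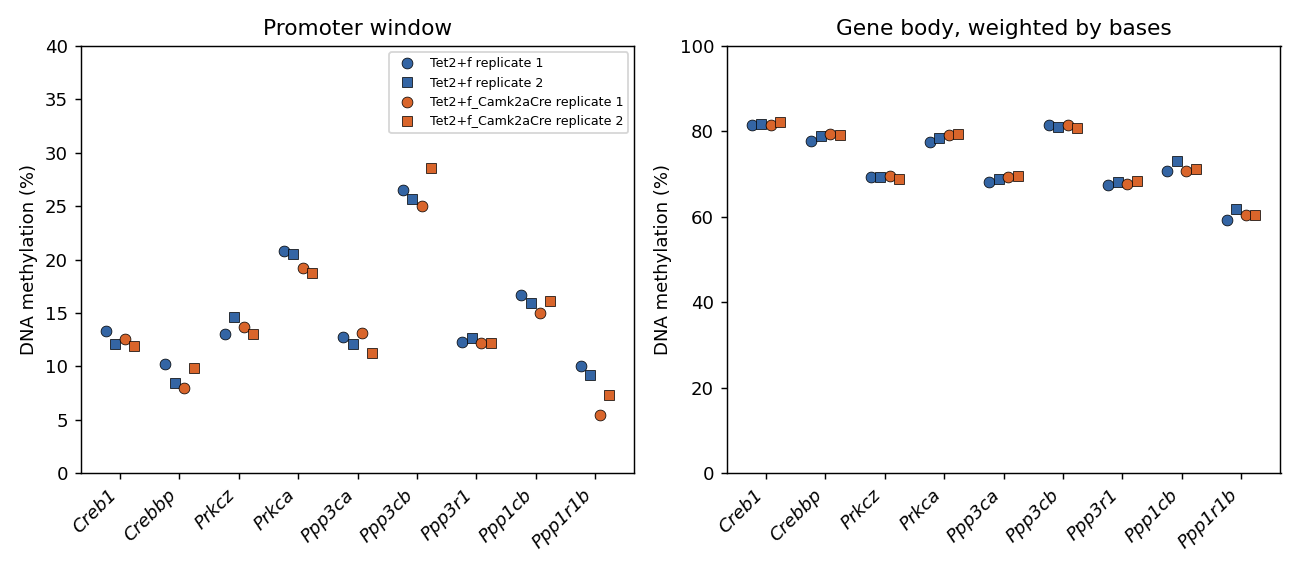
Methylation level (percent, y axis) of each gene in each of the 4 libraries, over the promoter (left) and over the gene body with regions weighted by the bases they share with the gene (right); circles and squares are replicates 1 and 2, blue the Tet2+f and orange the Tet2+f_Camk2aCre libraries. Ppp3cb has the highest promoter level, at 25.1% to 28.5%, and Ppp1r1b the lowest gene body, at 59.2% to 61.9%.

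Each start lay in an unbroken stretch of regions under 30%, which 53.2% of all 21953 starts had. The stretch was longest at Creb1 (3942 bp, percentile 90.0 among such stretches), Ppp3ca (3753 bp) and Ppp1r1b (3712 bp). It measured 3201 bp at Ppp1cb, 2462 bp at Prkca, 2255 bp at Ppp3r1 and 2055 bp at Crebbp. Ppp3cb (1725 bp) and Prkcz (1643 bp, percentile 43.4) were under the median of 1809 bp. Of the 529 regions, 55 (10.4%) were under 10%, beside 5.71% of all regions, and 33 of these 55 overlapped a promoter window. Such regions were short: 50 of the 51 regions under 500 bp had a level under 10%.

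Creb1, a plus-strand gene at chr1:64532794-64604548 (mm10), passed from an unmethylated start to a highly methylated body. The region over its start, from 64532692 to 64532883, was at 0%, 0%, 0% and 0.694%, in the order control replicates 1 and 2, then Cre replicates 1 and 2, used throughout. Past the promoter, the 22 other regions of the gene had a median of 85.7%. Just inside the gene, the region from 64533319 to 64533433 was at 0% and 0% (controls) against 7.29% and 10.2% (Cre), a difference of 8.75 points with a limma adjusted p of 0.937. Its unadjusted p of 5.2e-05 by limma was the smallest of the 529, and the Cre libraries lay above the controls without overlap. The next region, from 64533434 to 64533622, was at 1.72% and 0% (controls) against 4.28% and 7.36% (Cre), a difference of 4.96 points with a limma adjusted p of 0.937, again without overlap. Both are short, at 115 and 189 bp.

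Crebbp, a minus-strand gene at chr16:4081334-4213957, had its largest differences around its start, in both directions. The region from 4213441 to 4213685 was at 0.794% and 0% (controls) against 8.57% and 27.0% (Cre), a difference of 17.4 points with a limma adjusted p of 0.937. Replicate 2 of the Cre group was the highest library there, and the difference was 8.18 points without it and 26.6 points without Cre replicate 1. In the adjacent region from 4213275 to 4213438 the levels were 0% and 2.27% (controls) against 18.2% and 4.17% (Cre), a difference of 10.04 points with a limma adjusted p of 0.937. There Cre replicate 1 was the highest, and the difference was 3.03 points without it and 17.1 points without Cre replicate 2. The region from 4213687 to 4213792 was at 20%, 0%, 3.66% and 0%, so its difference of -8.17 points rested on control replicate 1. Upstream, the region from 4214403 to 4216149 was at 39.0% and 46.7% (controls) against 34.6% and 28.9% (Cre), a difference of -11.1 points with a limma adjusted p of 0.937, the most negative of the 529 and without overlap. It was -7.22 points without control replicate 2. Over the whole promoter the groups overlapped, at 10.2% and 8.42% against 7.93% and 9.80%. That difference of -0.455 points depended on the averaging: it was -5.78 points with regions weighted by bases, -4.02 points in a promoter of 1000 bp before to 200 bp past the start, and 1.13 points without regions under 200 bp. Past the far end of the gene, a region named for Trap1 was at 0.182% to 1.25%.

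Prkcz, a minus-strand gene at chr4:155260118-155361428, held a low stretch inside the gene at its internal starts, which RefSeq places 15.6 and 16.7 kb past the main start. Nearest to the main start, the region from 155345600 to 155346349 was at 19.3%, 18.2%, 18.7% and 19.6%. The one after it, from 155345179 to 155345573, was at 8.33%, 0%, 1.67% and 0%. The last, from 155344604 to 155345155, was at 7.06% and 5.29% (controls) against 8.91% and 9.85% (Cre), a difference of 3.21 points with a limma adjusted p of 0.937. The 4 libraries thus agreed on a dip at these starts, and the Cre libraries lay above the controls in the last region alone. The region over the main start, from 155361409 to 155361644, was at 0% and 0% (controls) against 1.70% and 0.500% (Cre), without overlap (unadjusted p = 0.0314, adjusted p = 0.937 by limma). Just inside the gene, the region from 155361239 to 155361405 was at 0% in all 4 libraries. A further low region, from 155307175 to 155308824, lay 52.6 kb into the gene at 27.6%, 24.0%, 24.6% and 24.8%, with no RefSeq start of the table there.

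**Figure D2:**
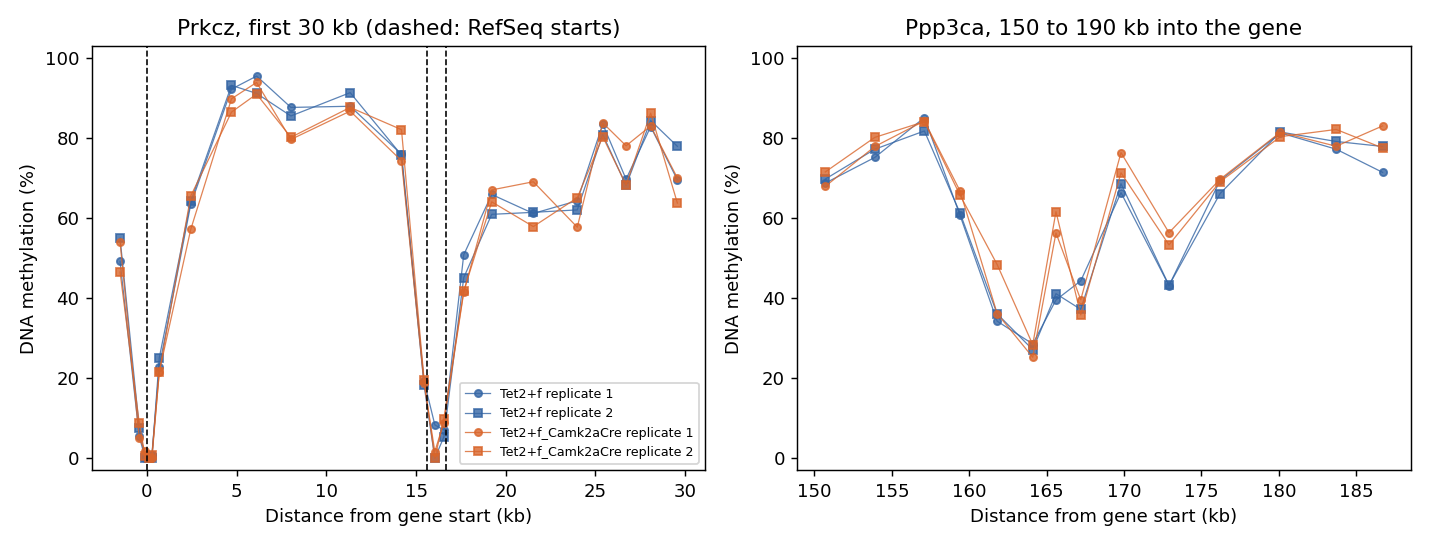
Methylation (percent, y axis) of each region against the distance of its middle from the gene start (kb, x axis) in the 4 libraries, for the first 30 kb of Prkcz (left, dashed lines at the RefSeq starts) and for 150 to 190 kb into Ppp3ca (right). Prkcz dips below 20% at its internal starts, and in Ppp3ca the Cre libraries lie above the controls in the regions that differ by 18.6 and 11.7 points.

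Prkca, a minus-strand gene at chr11:107933387-108343888, is the longest of these genes at 410.5 kb and holds 196 of the 529 regions. The region over its start, from 108343817 to 108344002, was at 0% and 0% (controls) against 0.867% and 0.333% (Cre), without overlap, and the region from 108343271 to 108343607, inside the gene, was at 0% in every library. The 187 regions past the promoter had a median of 81.1%, with quartiles of 72.7% and 86.8%. Upward differences were largest in the region from 107954654 to 107955519, at 75.3% and 84.0% (controls) against 94.5% and 92.2% (Cre), a difference of 13.7 points with a limma adjusted p of 0.937. The region from 107993736 to 107995312 was at 57.6% and 59.3% (controls) against 70.0% and 69.9% (Cre), a difference of 11.5 points with a limma adjusted p of 0.937, and replicates of a group lay within 2 points of each other. In the region from 108130725 to 108133964 the levels were 82.5% and 83.9% (controls) against 90.7% and 90.0% (Cre), a difference of 7.12 points with a limma adjusted p of 0.937. All 3 lie deep in the gene, and none of the 3 overlapped between groups.

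Other Prkca regions differed downward, also without overlap. The region from 108318598 to 108319669 was at 85.9% and 83.2% (controls) against 77.9% and 70.4% (Cre), a difference of -10.4 points, or -6.64 points without Cre replicate 2. The region from 108273186 to 108275012 was at 64.6% and 67.4% (controls) against 58.9% and 55.2% (Cre), a difference of -8.97 points, and the one from 108012957 to 108014499 at 80.5% and 84.2% (controls) against 71.7% and 76.5% (Cre), a difference of -8.21 points. A short way upstream of the start, the region from 108344212 to 108345071 was at 36.7% and 32.5% (controls) against 24.0% and 28.4% (Cre), a difference of -8.44 points. This last region lies in the promoter window and carries the name of Apoh in the table. All 4 had an adjusted p of 0.937 by limma.

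**Figure D3:**
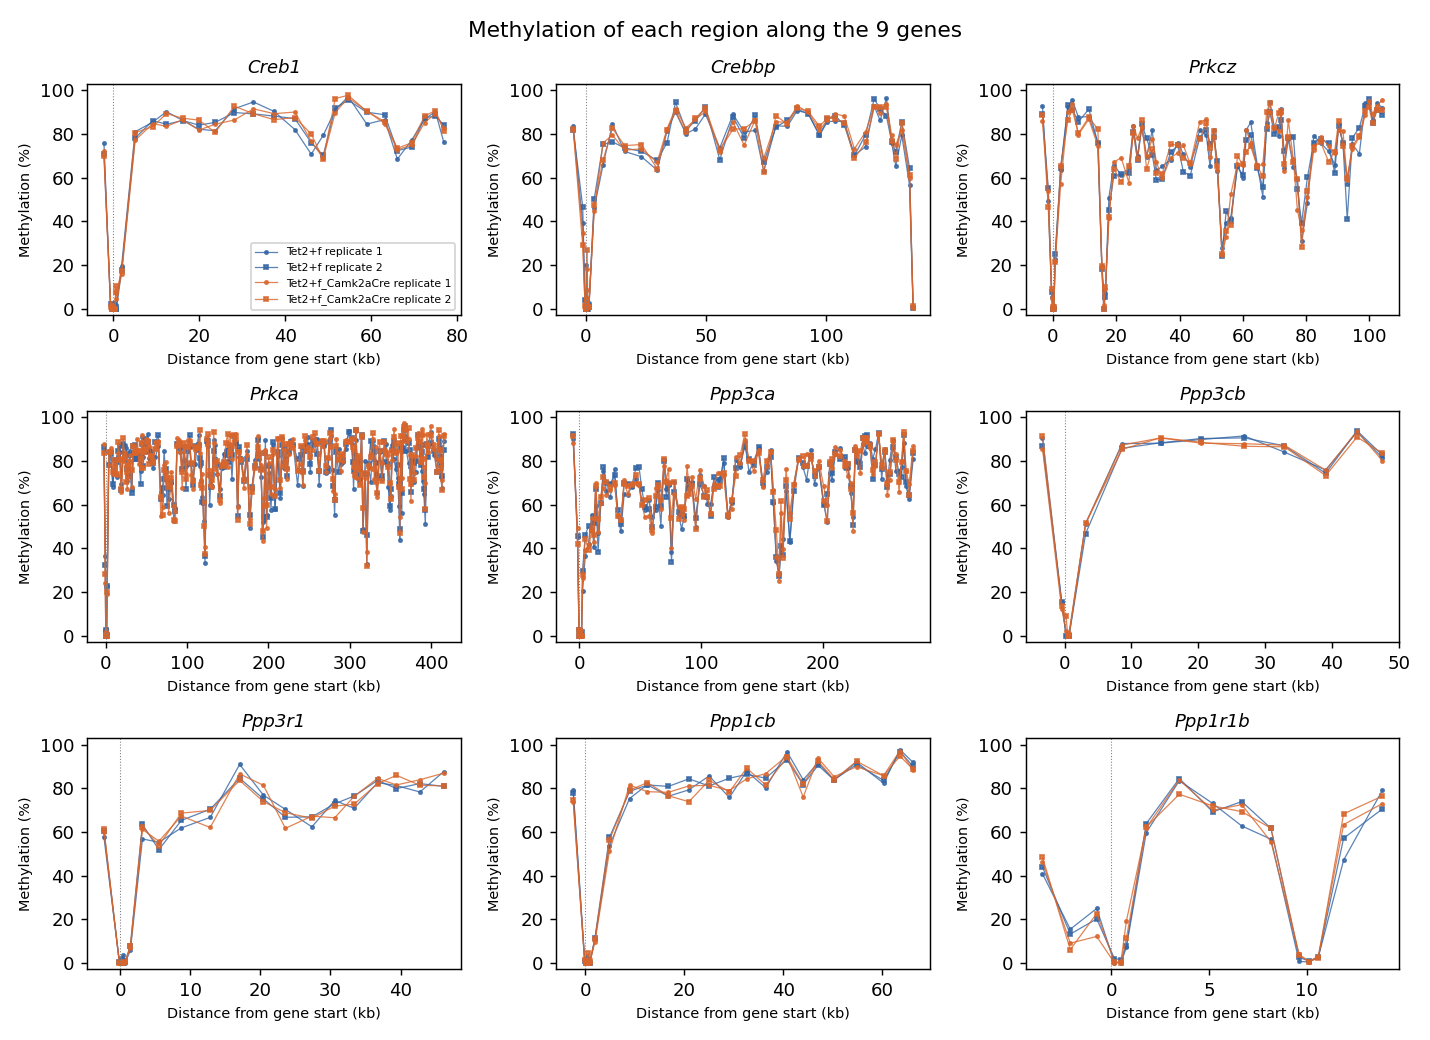
Methylation (percent, y axis) of each region against the distance of its middle from the gene start (kb, x axis, dotted line at the start) for the 9 genes, with 1 line per library (blue Tet2+f, orange Tet2+f_Camk2aCre). Every gene has its low stretch at the start, Prkcz dips again at its internal starts, and Ppp1r1b dips again where Stard3 begins.

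Among the 9 genes, those of the catalytic calcineurin subunit had unlike bodies. Weighted by the bases that regions share with the gene, Ppp3ca, a plus-strand gene at chr3:136669714-136937727, was at 68.0%, 68.8%, 69.3% and 69.5%. Ppp3cb, a minus-strand gene at chr14:20499364-20546573, was at 81.6%, 81.1%, 81.5% and 80.7%. Ppp3cb was higher by 11.2 to 13.5 points in each library. With regions counted equally the order turned, and Ppp3cb was lower by 3.59 to 5.07 points, 4 of its 13 regions being in the short stretch at the start. Past its start, Ppp3ca stayed at intermediate levels, with the 4 regions between 136673319 and 136682255 at 41.4% to 51.5% on average. Its regions past the promoter had quartiles of 56.5% and 78.0%, against 76.6% and 89.2% in Ppp3cb. Ppp3cc, a further catalytic gene outside the 9, was at 81.3%, 83.2%, 82.35% and 82.3% weighted by bases. With regions counted equally its mean was 69.6%.

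A second low stretch lay deep inside Ppp3ca. Its lowest region, from 136833025 to 136834533, was at 28.6%, 27.1%, 25.2% and 28.4%, and the groups overlapped. Next to it, the region from 136834551 to 136836029 was at 39.5% and 41.1% (controls) against 56.3% and 61.6% (Cre), a difference of 18.6 points with a limma adjusted p of 0.937. This was the largest difference of the 529 regions (unadjusted p = 0.00488 by limma). With 1 library left out it was 15.97 to 21.3 points, in a region named for the size of its difference. The region after it, from 136836032 to 136837835, was at 44.3% and 37.2% (controls) against 39.6% and 35.8% (Cre), a difference of -3.04 points, with overlap and in the other direction. Further on, the region from 136841134 to 136844139 was at 43.1% and 43.2% (controls) against 56.3% and 53.3% (Cre), a difference of 11.7 points with a limma adjusted p of 0.937, without overlap.

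Ppp3r1, a plus-strand gene at chr11:17159298-17200380, had a body level of 67.5%, 68.3%, 67.7% and 68.4%, weighted by bases. Its start was evenly unmethylated, with 5 neighbouring regions between 17159072 and 17160165 at 3.45% or less in every library. None of its 21 regions had an unadjusted p under 0.05 by limma, beside 4.60% of all regions, so few would be looked for among 21. The promoter was at 12.3% and 12.6% against 12.2% and 12.2%.

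Ppp1cb, a plus-strand gene at chr5:32458848-32493713, was at 70.7%, 73.0%, 70.8% and 71.2% over its body. Near its start, the region from 32459122 to 32459306 was at 2.70% and 1.04% (controls) against 0% and 0% (Cre), a difference of -1.87 points with a limma adjusted p of 0.937, or -1.04 points without control replicate 1. Ppp1r1b, a plus-strand gene at chr11:98348406-98357796, is the shortest gene at 9.39 kb and had the lowest body, at 59.2%, 61.9%, 60.5% and 60.4%. The region at its end, from 98357625 to 98358380, was at 0.694%, 2.56%, 3.97% and 3.53% and borders the low start of Stard3. Inside Stard3, the neighbouring region from 98359417 to 98361126 was at 47.0% and 57.1% (controls) against 63.3% and 68.2% (Cre), a difference of 13.7 points with a limma adjusted p of 0.937, or 8.70 points without control replicate 1.

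The Ppp1r1b promoter was at 10.1% and 9.21% against 5.46% and 7.31%, with both Cre libraries below both controls. This difference of -3.26 points did not pass (unadjusted p = 0.0174, adjusted p = 0.956 by limma). It was the largest of the 9 promoters with regions counted equally, but Crebbp exceeded it when regions were weighted by bases (-5.78 against -4.57 points) and in the narrower promoter (-4.02 against -2.96 points). The largest differences lay before the start. The region from 98345641 to 98347006 was at 15.4% and 13.2% (controls) against 9.03% and 6.10% (Cre), a difference of -6.73 points, and the region from 98347007 to 98348334 at 24.9% and 20.1% (controls) against 12.1% and 22.6% (Cre), a difference of -5.18 points, where the groups overlapped. The 2 regions at and just past the start, between 98348360 and 98349015, differed by -0.734 and -0.403 points, with overlap. Further in the direction was the opposite, with the region from 98349016 to 98349352 at 7.09% and 7.95% (controls) against 19.03% and 11.2% (Cre), a difference of 7.60 points with a limma adjusted p of 0.937.

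In order of base-weighted body level, Creb1 (81.4% to 82.2%) and Ppp3cb (80.7% to 81.6%) were highest and overlapped. Crebbp (77.7% to 79.4%) and Prkca (77.6% to 79.3%) came next and overlapped, then Ppp1cb (70.7% to 73.0%) alone. Prkcz (68.8% to 69.5%) overlapped Ppp3ca (68.0% to 69.5%), which overlapped Ppp3r1 (67.5% to 68.4%), and Ppp1r1b (59.2% to 61.9%) was lowest. Among all 49601 gene bodies these ran from percentile 10.4 for Ppp1r1b to percentile 56.4 for Creb1.

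Whether these genes differed in methylation between the groups was tested first by region. Of the 529 regions, 0 passed limma adjusted over 849014 regions, as did 0% of all regions. Without adjustment, 30 regions (5.67%) were under 0.05 by limma, beside 4.60% of all regions. Of these, 19 of the 529 were higher with Cre, beside 2.25% of all regions, and 11 of the 529 lower, beside 2.35%. By length, 11 of 51 regions under 500 bp (21.6%) were under 0.05 by limma, and 19 of 478 regions of 500 bp or more (3.97%). All regions were not split by length in the same way. The mean was higher with Cre in 293 regions (55.4%), beside 49.2% of all regions. The Cre libraries both exceeded the controls in 119 regions (22.5%, background 15.9%) and both fell short of them in 58 of 529 (background 16.8%). Differences of at least 10 points were upward in 10 regions (1.89%, background 0.487%) and downward in 2 (0.378%, background 0.388%). Neighbouring regions are not independent, and these counts carry no test.

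The genes have more regions of intermediate level than the whole table, so the counts were also taken at 30 to 80% alone. There, 61 of 252 regions (24.2%, background 16.7%) had both Cre libraries above and 27 (10.7%, background 16.4%) had both below. Differences of at least 10 points were upward in 6 (2.38%, background 1.19%) and downward in 2 (0.794%, background 0.975%), and 8 (3.17%, background 2.63%) had an unadjusted p under 0.05 by limma. By gene, the 119 regions with both Cre libraries above were 49 of 196 in Prkca, 29 of 114 in Ppp3ca, 11 of 44 in Crebbp, 10 of 70 in Prkcz and 7 of 30 in Creb1, and 4 of 24 in Ppp1cb, 4 of 16 in Ppp1r1b, 3 of 14 in Ppp3cb and 2 of 21 in Ppp3r1. In the opposite direction Prkca had 18 of 196, Ppp3ca 12 of 114, Prkcz 11 of 70 and Crebbp 4 of 44. Creb1 had 4 of 30, Ppp1cb 3 of 24, Ppp3cb 3 of 14, Ppp3r1 2 of 21 and Ppp1r1b 1 of 16. These counts by gene cover all levels, where the background was 15.9% above and 16.8% below. Above, Prkcz (14.3%) and Ppp3r1 (9.52%) were under the background and Ppp1cb (16.7%) was close to it. Below, only Ppp3cb (21.4%) exceeded the background, and Prkcz (15.7%) was close to it.

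**Figure D4:**
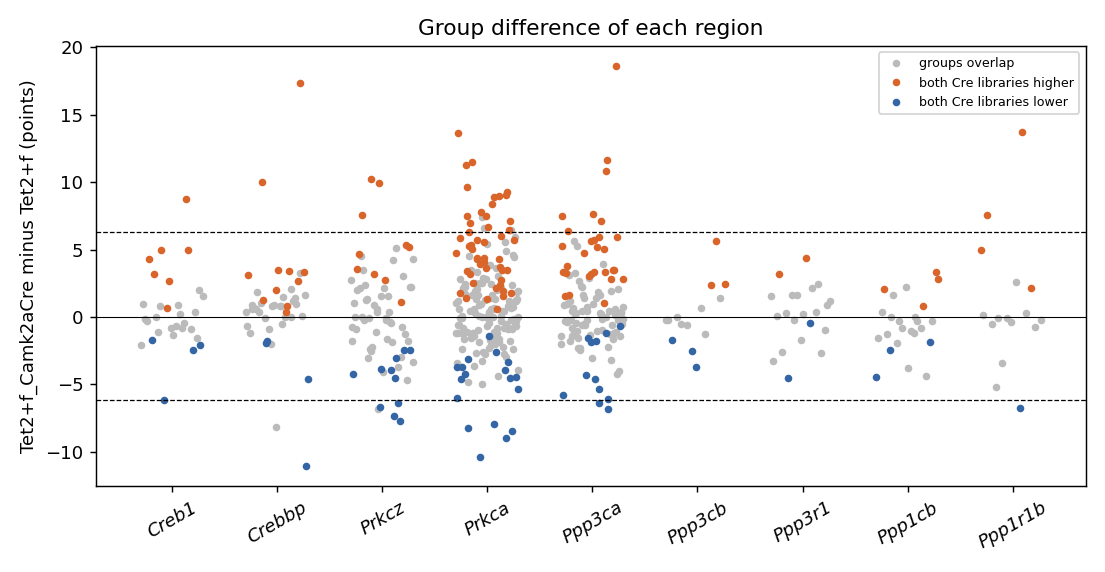
Difference between the mean of the Tet2+f_Camk2aCre and of the Tet2+f libraries (percentage points, y axis) for each of the 529 regions by gene; coloured points have both Cre libraries above or below both controls, and grey points overlap. The dashed lines at -6.14 and 6.31 points hold the middle 95% of all 849014 regions; Ppp3ca has the highest point, at 18.6, and Crebbp the lowest, at -11.1.

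Over whole gene bodies, with regions counted equally, the differences were small. By limma 0 of 9 passed, as did 0% of 49601 bodies, and 0 had an unadjusted p under 0.05, beside 5.60%. The mean was higher with Cre in 8 of 9, beside 50.1% of all bodies, and the direction turned in Prkcz, Ppp3cb and Ppp1r1b with regions weighted by bases. In Crebbp (65.6% and 66.3% against 67.4% and 67.0%, 1.28 points), Prkca (75.6% and 76.6% against 77.2% and 77.4%, 1.17 points) and Ppp3ca (62.0% and 62.8% against 63.1% and 63.5%, 0.959 points) both Cre libraries lay above both controls, as in 16.4% of all bodies. Without control replicate 1 the difference was 0.690 points in Prkca and 0.569 points in Ppp3ca. In 0 of 9 did both lie below, beside 16.6%. The other 6 overlapped, from -0.425 points for Ppp1cb to 0.811 points for Ppp1r1b, and the limma adjusted p ran from 0.985 to 0.999 over the 9 genes.

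Over promoters the balance was the other way. By limma 0 of 9 passed, as did 0% of 21953 promoters, and 1, Ppp1r1b, had an unadjusted p under 0.05, beside 5.13%. The mean was higher with Cre in 1 of 9, Ppp3cb, beside 50.8% of all promoters. Both Cre libraries lay below both controls in 3, Ppp1r1b, Prkca (20.8% and 20.6% against 19.2% and 18.7%, -1.70 points) and Ppp3r1, as in 16.8% of all promoters, and above in 0, beside 17.0%. The Prkca mean includes the upstream region starting at 108344212, at -8.44 points, already named above for its size, so the 2 results are not separate. With regions weighted by bases the direction turned in Ppp3r1 (0.920 points), Ppp3ca (0.178 points) and Ppp3cb (-0.522 points). The other 6 overlapped, from -0.821 points for Ppp1cb to 0.719 points for Ppp3cb. Weighting by bases moved Crebbp to -5.78, Prkca to -3.07, Ppp1cb to -2.95, Creb1 to -0.989 and Prkcz to -0.967 points.

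Further genes of the same signalling formed a list of 46: subunits of protein kinase A, other genes of protein kinase C, calcineurin and protein phosphatase 1, relatives and coactivators of CREB, MAP kinases, calmodulin kinases, and genes of cAMP. By limma, 0 of 46 gene bodies and 0 of 45 promoters passed in either direction. Gene bodies were higher with Cre in 25 and lower in 21 (median 0.151 points), and promoters higher in 28 and lower in 17 (median 0.222 points), where 50.1% of all bodies and 50.8% of all promoters were higher. Unadjusted p under 0.05 occurred in 1 body, Atf4, and in 2 promoters, all 3 lower with Cre, against backgrounds of 5.60% of bodies and 5.13% of promoters. The promoter of Ppp1cc, a further catalytic subunit of protein phosphatase 1, was at 82.0% and 81.8% against 76.4% and 75.2% (-6.13 points, limma adjusted p = 0.944). That of Adcy1, a calmodulin-stimulated adenylyl cyclase, was at 21.7% and 21.6% against 14.0% and 17.0% (-6.13 points, limma adjusted p = 0.944), but differed by 0.0667 points without regions under 200 bp. The Ppp1cc promoter level came from 2 regions, beside a mean base-weighted body of 51.35%. Whether its window holds the start in use was not tested.

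The other promoters named from this list were those of Prkce (6.93% and 6.54% against 15.9% and 6.71%) and Camkk1 (46.5% and 51.1% against 54.3% and 51.5%), a kinase that activates other calmodulin kinases. The difference of 4.06 points in Camkk1 turned to -0.855 points in the narrower promoter and -0.618 points with regions weighted by bases. For Prkce the higher Cre mean came from replicate 1. The largest body differences were 2.87 points for Ppp1r1a, an inhibitor of protein phosphatase 1, 2.75 for Mapk3 and 1.49 for Ppp1ca, and -2.47 points for Ppp3r2, -1.57 for Atf1 and -1.11 for Map2k2. Mapk3 overlapped between the groups. Without 1 library, Mapk3 ranged from 0.557 to 4.95 points, Ppp1ca from 0.442 to 2.54, Ppp1r1a from 1.71 to 4.02, Ppp3r2 from -4.18 to -0.761 and Map2k2 from -1.56 to -0.653, the smallest differences being without control replicate 1, or control replicate 2 for Ppp3r2. The limma adjusted p of these 6 bodies ran from 0.925 to 0.999.

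The gene most like each of the 9 was sought among 18834 others, by the Euclidean distance over its 4 promoter and 4 gene body levels. The nearest were Ska3 to Creb1 (1.73 points), Acvr1b to Crebbp (1.77), Brix1 to Prkcz (1.14), Slc16a10 to Prkca (1.43), AW549877 to Ppp3ca (1.47), Cct2 to Ppp3cb (2.63), Mapkapk5 to Ppp3r1 (1.13), Fam168b to Ppp1cb (1.44) and Matr3 to Ppp1r1b (4.70). Of these, the neighbour of Ppp1r1b was the most distant.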

How the data were processed

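The authors deposited percent methylation per region and library. The submitters' processing notes name the build mm10 and, without roles, edgeR, Bismark 0.19.0, Trim Galore 0.4.5 and FastQC 0.11.5. The way regions were drawn, CpGs averaged and coverage filtered was not stated. Bisulfite libraries were made with an Accel-NGS Methyl-Seq kit, per the labels' protocols.

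Columns were matched to libraries by title. Left out were 158 of 849172 regions, which lacked a value. Gene positions came from RefSeq (GRCm38.p6). Regions, promoters and gene bodies were tested, 2 libraries against 2, with limma 3.58.1 (R 4.3.3) on the log2 ratio of methylated to unmethylated share, 0.01 being added to each, and adjusted by Benjamini-Hochberg over all features at 0.05. The fit was also run on simulated levels of promoters alone. The share of planted differences that would pass is not given here, and regions and gene bodies were not simulated. A count test, foreseen had reads been given, could not be used on percent values. Differences are Cre minus control, in percentage points.

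The genes, lists and tests were chosen with earlier results of these data known, although the rule for regions uses no level. Regions named are those in promoters, those under 30% inside a gene, the 6 largest differences in each direction and the 6 smallest p; other pathway genes named are the 3 largest differences in each direction at promoters and at bodies, of which some are not reported here. The Ppp3ca regions at 136673319 to 136682255 and at 136836032, Atf4 and the class at 30 to 80% were added after their values were seen. Alternatives were untransformed percent, an offset of 0.05, a trended and robust prior, a replicate block, a threshold of 0.01, each library left out, regions of at least 200 bp, autosomes, a narrower promoter, weighting by bases, and regions by deposited gene name.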

Additional observations from a re-analysis of the deposited data

How the results depend on the processing

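Depth is unknown, so short regions resting on few reads cannot be set apart. Regions and gene bodies had 0 features past the threshold under all alternatives run, and promoters had 0 except with the trended and robust prior, where 1 of 21953, none of the 9 genes, passed. Treating the replicate number as a block gave 0 at all 3 levels. The threshold of 0.01 used the main fit, so it could not pass more features than the main setting. Replicate 1 minus replicate 2 had a correlation of 0.00648 between the groups, which gives no pairing. Leaving out 1 library gave 0 to 0 at all 3 levels, taking a lone library to vary as the rest do, and 67 to 68 of the 529 regions under 30%, beside 67.

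Over 545 alternative values of 45 named genes and regions, limma's adjusted p was 0.34 to 1. The scale, offset, prior, block, threshold and autosome alternatives leave a point difference unchanged, so they could not turn a direction. With the others the following turned direction, and the cause was not tested. With regions of at least 200 bp, the difference was -0.0529 points for the Creb1 body and 1.13, 0.247, 0.547 and 0.0667 for the Crebbp, Ppp3ca, Ppp3r1 and Adcy1 promoters. Weighting by bases gave -0.160, -0.239 and -0.136 for the Prkcz, Ppp3cb and Ppp1r1b bodies, and 0.178, -0.522, 0.920 and -0.618 for the Ppp3ca, Ppp3cb, Ppp3r1 and Camkk1 promoters. The narrower promoter gave 0.247, 0.0944 and -0.855 for Ppp3ca, Ppp3r1 and Camkk1.

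Leaving out 1 library spread the promoter difference over -1.01 to 0.1104 for Creb1, -1.39 to 0.482 for Crebbp, -1.25 to 0.292 for Prkcz, -1.21 to 0.647 for Ppp3ca, -1.01 to 2.45 for Ppp3cb and -0.0267 to 9.16 for Prkce. For bodies it was -0.117 to 1.13 for Creb1, -0.155 to 0.296 for Prkcz, -0.201 to 0.505 for Ppp3r1, -1.15 to 0.295 for Ppp1cb and -0.503 to 2.13 for Ppp1r1b. The Crebbp region at 4213687 went from -18.2 to 1.83.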
